A study of Mus musculus with 10 samples.

Results

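The 6 genes described here encode readers of DNA methylation and protectors of imprinted methylation: Mbd1, Mbd2, Mbd3 and Mbd4, whose proteins share the methyl-CpG-binding domain, and Zfp57 and Trim28, whose proteins act together at imprinted loci. They were chosen by name from 21887 protein-coding genes, and their own DNA methylation was read from every listed cytosine with at least 5 reads in both libraries inside the gene or within 2 kb of it. That gave 811 cytosines at 510 CpGs, out of 6745376 cytosines in all. The cells were spermatogonia of male mouse pups at postnatal day 6, from Id4-eGfp transgenic mice on a C57BL/6 background, in which cells expressing the stem-cell regulator ID4 fluoresce green. EGFP-positive cells were divided by antibody staining for the surface protein TSPAN8 into TSPAN8-high, the most strongly stained, and TSPAN8-low, the most weakly stained, and the cells between were not kept. Both fractions carry the same transgene and neither was treated. The reporter and the stain, not a test of stem-cell activity, define the fractions. DNA from 5 pooled sorts of each fraction was sequenced by reduced-representation bisulfite sequencing (RRBS), which reads CpGs near restriction sites and scores a cytosine as methylated when bisulfite leaves it unconverted.

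There was 1 library per fraction, so every test below compares these 2 libraries and not the conditions, and intervals cover counting error only. A methylation level is a mean over the cells of a pool, so fewer methylated cells and fewer methylated copies per cell cannot be told apart. Over the 6 loci the TSPAN8-high library had 9899 reads of cytosines and the TSPAN8-low library 9833, with a median of 10 per cytosine in each. As a check of the label, 9 of 9 germline genes, several of which DNA methylation silences in somatic cells, had promoter levels below 20% in each library, as did 79.6% of all measured protein-coding genes, so this is a weak check. The Id4 promoter was at 1.64% of 26916 reads in TSPAN8-high cells and 1.23% of 32249 reads in TSPAN8-low cells. The difference was 0.407 percentage points, with an adjusted p of 0.00417 by Fisher's exact test. These reads fell on 187 cytosines, far more per cytosine than the median of 10. Whether copies of the Id4-eGfp transgene add to them was not tested, so the level may not be that of the Id4 gene alone. Dazl, which encodes a germline RNA-binding protein, was at 2.48% in TSPAN8-high cells and 1.40% in TSPAN8-low cells. Of 10 genes of other testis cells, 4 were below 20% in both, among them Sox9 and Amh of Sertoli cells, and these levels do not count such cells.

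MBD proteins bind DNA in which the cytosine of a CpG carries a methyl group, and most of them bring in protein complexes that silence the DNA they bind. MBD1 works with the histone methyltransferase SETDB1, and MBD2 recruits the NuRD complex, which joins chromatin remodelling to histone deacetylation. MBD3 is a NuRD subunit with little preference for methylated DNA in mammals, and MBD4 is a DNA glycosylase that removes thymine left when a methylated cytosine is deaminated. ZFP57 is a KRAB zinc-finger protein that binds a methylated TGCCGC motif at imprinting control regions, and TRIM28 is the corepressor that KRAB zinc-finger proteins recruit. Male germ cells erase the imprints they inherit and write paternal ones largely before birth, ahead of the stage sampled here.

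The RefSeq promoter table (GRCm38.p6, the patch series of mm10) matched 4 of the 6 genes by symbol, with 250 bases before and 50 after each annotated start. The sequences below are shown because they hold both methylation states seen among these genes, and capitals mark the CpGs listed in both libraries.
Mbd3, chr10:80399482-80399781, minus strand: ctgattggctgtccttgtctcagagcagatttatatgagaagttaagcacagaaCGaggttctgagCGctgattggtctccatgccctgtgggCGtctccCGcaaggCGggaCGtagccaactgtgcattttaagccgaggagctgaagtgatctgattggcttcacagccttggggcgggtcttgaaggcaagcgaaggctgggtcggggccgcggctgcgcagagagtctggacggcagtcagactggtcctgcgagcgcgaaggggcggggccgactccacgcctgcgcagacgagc
Mbd4, chr6:115853292-115853591, minus strand: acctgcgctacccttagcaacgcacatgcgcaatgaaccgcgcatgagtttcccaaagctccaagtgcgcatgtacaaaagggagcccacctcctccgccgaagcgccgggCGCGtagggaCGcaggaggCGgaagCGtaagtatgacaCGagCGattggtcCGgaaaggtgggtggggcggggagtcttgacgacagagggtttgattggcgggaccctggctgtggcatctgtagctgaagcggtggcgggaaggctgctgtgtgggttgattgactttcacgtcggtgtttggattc
Zfp57, first of 3 annotated starts, chr17:37000913-37001212, plus strand: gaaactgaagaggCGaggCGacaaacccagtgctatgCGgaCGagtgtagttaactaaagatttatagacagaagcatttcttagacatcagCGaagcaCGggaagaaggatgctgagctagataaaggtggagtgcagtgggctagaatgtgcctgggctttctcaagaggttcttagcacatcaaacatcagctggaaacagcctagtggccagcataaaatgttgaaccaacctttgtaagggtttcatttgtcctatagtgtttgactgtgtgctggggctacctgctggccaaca
Zfp57, last annotated start, chr17:37003416-37003715, plus strand: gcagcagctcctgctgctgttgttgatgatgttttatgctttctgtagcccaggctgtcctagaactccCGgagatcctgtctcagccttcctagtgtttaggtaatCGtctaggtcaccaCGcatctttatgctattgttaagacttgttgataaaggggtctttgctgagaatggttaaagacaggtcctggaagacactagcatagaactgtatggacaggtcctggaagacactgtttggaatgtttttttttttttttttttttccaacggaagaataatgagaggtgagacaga

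The Mbd3 and Mbd4 promoters held 22 and 25 CpGs in these 300 bases, against a median of 7 over the 32851 promoters of the table. Reads at the 6 listed CpGs of Mbd3 were methylated in 0 of 120 cases in TSPAN8-high cells, which allows a level of up to 2.5%, and in 7 of 125 (5.60%) in TSPAN8-low cells. In TSPAN8-low cells each minus-strand cytosine from 80399669 to 80399727 had 1 methylated read of 7, as 1 read counted at each would give. At the 8 listed CpGs of Mbd4 the counts were 2 of 107 (1.87%) in TSPAN8-high cells and 0 of 180 in TSPAN8-low cells, which allows up to 1.67%. The first start of Zfp57 had only 6 CpGs, all of them listed and nearly fully methylated, with 110 of 113 reads (97.4%) in TSPAN8-high cells and 112 of 115 (97.4%) in TSPAN8-low cells. Its last start, with 3 of its 4 CpGs listed, was unmethylated or nearly so, at 6 of 67 reads (8.96%) in TSPAN8-high cells and 0 of 89 in TSPAN8-low cells, which allows up to 3.37%. The Trim28 promoter held 23 CpGs, of which 1 was listed, and it was unmethylated in both libraries. The letters TGCCGC, on either strand, were in 11.6% of all promoters in the table, and among the promoters of Mbd3, Mbd4, Zfp57 and Trim28 they occurred once, in that of Trim28.

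**Figure D1:**
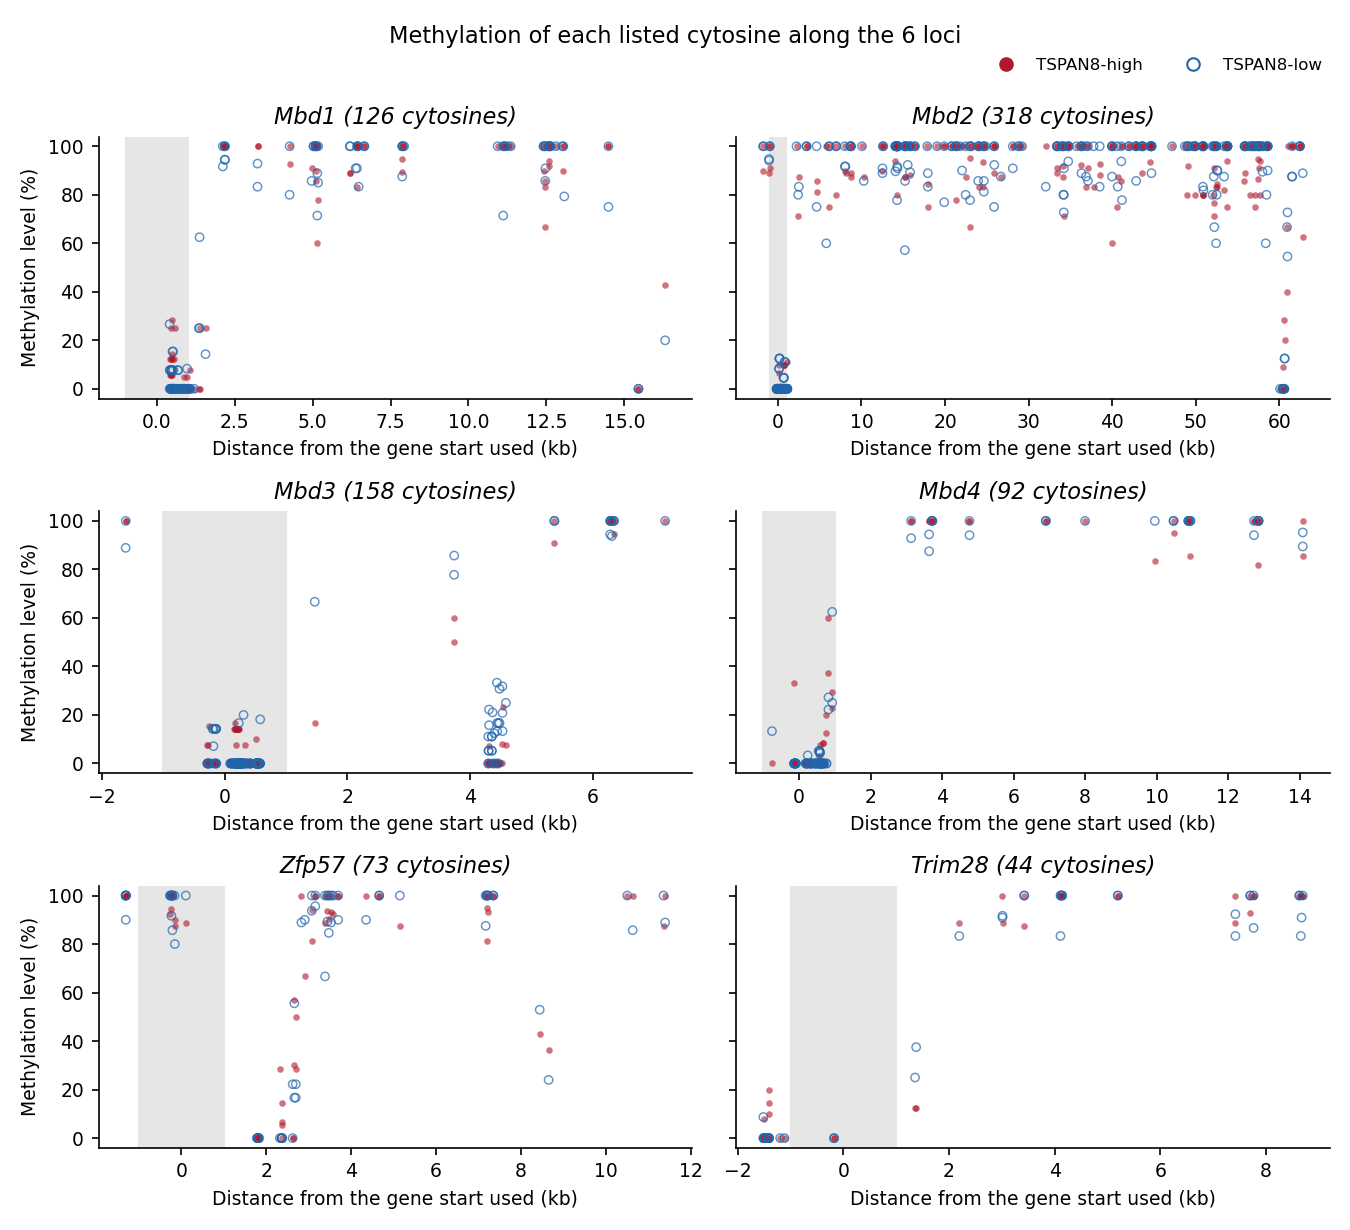
Methylation level (%) of each listed cytosine against its distance from the gene start used (kb, negative before the start), with 1 panel per gene, filled points for TSPAN8-high, open points for TSPAN8-low and the 1-kb promoter window in grey. Levels are near 0 around the starts of Mbd2, Mbd3, Mbd4 and Trim28 and near 100 around the first start of Zfp57, in both libraries. They are also near 0 in the window of Mbd1, where all cytosines lie downstream of the start used.

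For the comparison of promoters, reads were pooled over the cytosines within 1 kb of the gene start and set against each other by a two-sided Fisher's exact test, adjusted by the Benjamini-Hochberg method over 16888 protein-coding genes with at least 5 cytosines. A promoter was called when its adjusted p was below 0.05 and its difference at least 10 percentage points. None of the 5 measured members was called, and 0.622% of all promoters were. Without the minimum difference, again none was called, against 3.76% of all promoters, and 1 of the 5, Mbd3, had an unadjusted p below 0.05, as did 16.5% of all promoters. Differences are TSPAN8-high minus TSPAN8-low throughout.

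The promoters of the 4 MBD genes were low in methylation in both fractions. Mbd1 (chromosome 18, 74267605 to 74282737) was at 3.43% (22 of 641 reads) in TSPAN8-high cells and 3.75% (23 of 613) in TSPAN8-low cells over 52 cytosines. Mbd2 (chromosome 18, 70568225 to 70629134) was at 5.22% (50 of 958) in TSPAN8-high cells and 5.93% (48 of 809) in TSPAN8-low cells over 65 cytosines. For these 2 genes the start was taken as the end of the gene span with more listed CpGs. All 52 cytosines of the Mbd1 window lie 410 to 970 bp downstream of that start, so none was measured nearer to it or upstream. The differences were -0.32 (95% interval -2.47 to 1.79) for Mbd1 and -0.714 (-2.94 to 1.43) for Mbd2, with adjusted p values of 0.999 and 0.883 by the exact test. Most of the methylated reads of the Mbd2 window lay at its edge. In the run of 74 cytosines over 1281 bp around the start, each below 20% in both libraries, 7 of 1033 reads (0.678%) were methylated in TSPAN8-high cells and 14 of 907 (1.54%) in TSPAN8-low cells.

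Mbd3 (chromosome 10, 80392539 to 80399531, minus strand) had the most cytosines in its promoter window, 115. It was methylated in 23 of 1267 reads (1.82%) in TSPAN8-high cells and in 12 of 1394 (0.861%) in TSPAN8-low cells, a difference of 0.95 (0.077 to 1.92). That was below the calling threshold, with p = 0.0398 and, by the exact test, an adjusted p of 0.271. It ran opposite to the difference in the 300 bases printed above. In TSPAN8-high cells most plus-strand cytosines from 80399301 to 80399377 had 1 methylated read of 7. Neighbouring CpGs sit on the same reads, so each of these differences may rest on few reads. Mbd4 (chromosome 6, 115840697 to 115853400, minus strand) was at 3.11% (28 of 901 reads) in TSPAN8-high cells and 2.97% (29 of 977) in TSPAN8-low cells, and its difference was 0.139 (-1.44 to 1.76, Fisher's exact test, adjusted p = 1). Within the Mbd4 window the highest levels were on the side towards the gene body. The 55 cytosines from 128 bp before to 765 bp after the start had 5 of 810 methylated reads (0.617%) in TSPAN8-high cells and 9 of 859 (1.05%) in TSPAN8-low cells. Of the whole window, the highest single cytosine was at 60.0% in TSPAN8-high cells and another at 62.5% in TSPAN8-low cells. The neighbour Ift122, which encodes a ciliary transport protein, overlaps the Mbd4 span at its start, so the window lies in both genes.

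**Figure D2:**
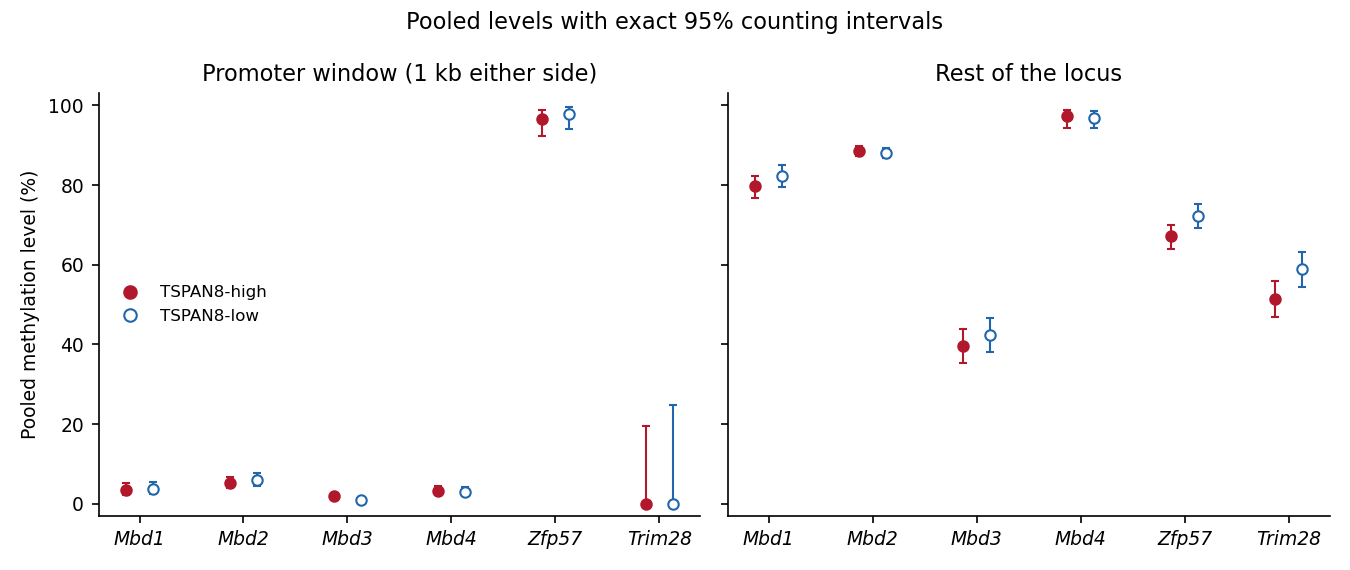
Pooled methylation level (%) of each gene in its promoter window (left) and in the rest of its locus (right), with exact 95% binomial intervals for counting error, TSPAN8-high filled and TSPAN8-low open. Promoter levels lie below 6% for the MBD genes and above 96% for Zfp57, and the intervals of Trim28 are wide because its window holds 2 cytosines.

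Zfp57 (chromosome 17, 37001163 to 37010729, plus strand) had the opposite state at its first start. Over 13 cytosines, 142 of 147 reads (96.6%) were methylated in TSPAN8-high cells and 141 of 144 (97.9%) in TSPAN8-low cells, a difference of -1.32 (-5.84 to 3.00, Fisher's exact test, adjusted p = 0.986). These levels lay above those of 95.7% of all promoters in the TSPAN8-high library and 97.3% in the TSPAN8-low library, whereas 79.6% of promoters were below 20% in both. The genes closest to Zfp57 in both levels, over the 2 libraries, were H1f8, the oocyte linker histone gene, Rsc1a1 and Oas1e. H1f8 was at 96.6% in TSPAN8-high cells and 97.9% in TSPAN8-low cells, and the others were within 0.123 percentage points of Zfp57 in combined distance.

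The methylated state of Zfp57 did not extend to the CpGs listed between and at its inner starts. No CpG was listed in the 300 bases around the middle start, 1362 bp downstream. The 8 cytosines from 1778 to 1835 bp downstream of the first start had no methylated read. That was 0 of 182 in TSPAN8-high cells and 0 of 66 in TSPAN8-low cells. Counted as separate reads, these allow up to 1.65% in TSPAN8-high cells and 4.55% in TSPAN8-low cells. Single cytosines here had at most 26 reads in TSPAN8-high cells and 12 in TSPAN8-low cells. Neighbouring CpGs sit on the same reads, so the levels allowed are higher. Around the last start, 2503 bp downstream, the 13 cytosines within 500 bp had 29 of 129 methylated reads (22.5%) in TSPAN8-high cells and 28 of 153 (18.3%) in TSPAN8-low cells. Single cytosines there ran from 0 to 100% in TSPAN8-high cells and from 0 to 90% in TSPAN8-low cells. Methylation then returned: in the 1-kb tile from 37004001 it was 96.0% (311 of 324) in TSPAN8-high cells and 94.2% (294 of 312) in TSPAN8-low cells.

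**Figure D3:**
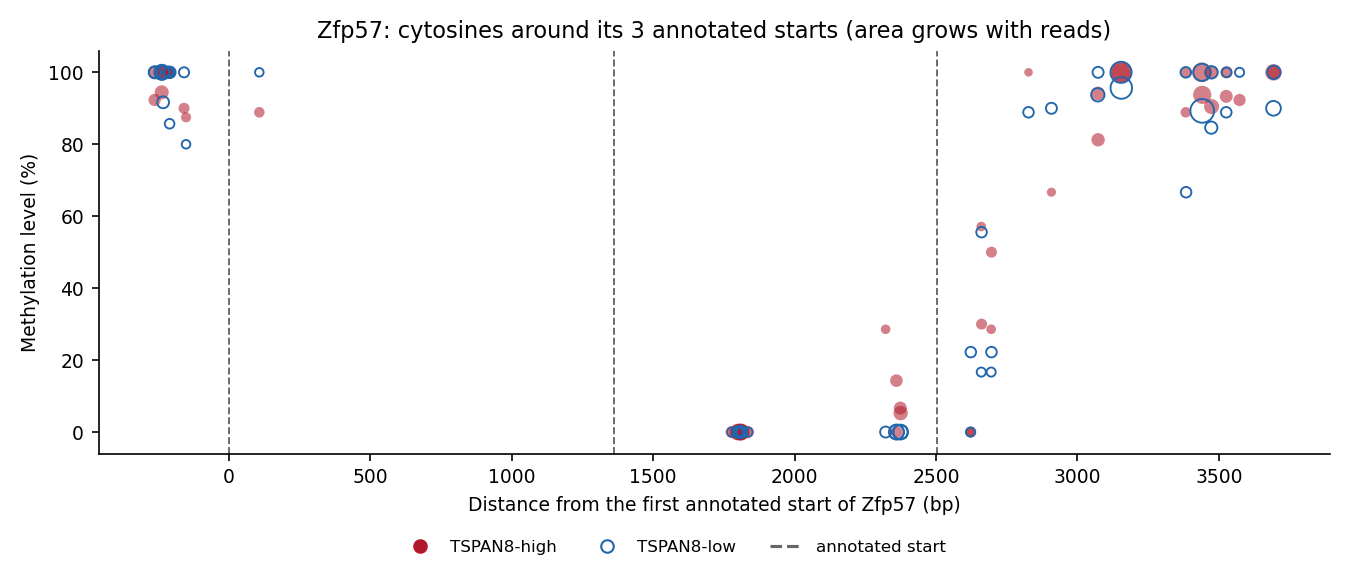
Methylation level (%) of Zfp57 cytosines against the distance (bp) from its first annotated start, with dashed lines at its 3 starts and point area growing with reads. All cytosines near the first start are at 80% or above, those 1778 to 1835 bp downstream are at 0 in both libraries, and levels climb past the last start.

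A wider promoter window of Zfp57 takes in both the methylated and the unmethylated stretch, and its pooled level moved with the reads in each. With 2 kb either side of the first start, Zfp57 was called lower in TSPAN8-high cells, at 54.1% against 78.5% in TSPAN8-low cells, a difference of -24.4 (-30.8 to -17.7, Fisher's exact test, adjusted p = 1.59e-08). The unmethylated stretch had 182 of the 407 reads of that window in TSPAN8-high cells and 66 of 330 in TSPAN8-low cells. With each of the 27 cytosines given equal weight the levels were 68.6% in TSPAN8-high cells and 68.4% in TSPAN8-low cells, a difference of 0.213, and with cytosines as strata (Mantel-Haenszel test) the difference was 0.118, with an adjusted p of 0.969. Around the last start, 1 kb either side, the pooled levels were 46.9% in TSPAN8-high cells and 55.7% in TSPAN8-low cells, with an adjusted p of 0.093 by the exact test, and the stratified difference had the other sign, at 2.43.

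Trim28 (chromosome 7, 13024152 to 13031032, plus strand) had 2 cytosines in its promoter window, too few to be tested, with 0 of 17 methylated reads in TSPAN8-high cells and 0 of 13 in TSPAN8-low cells, which allows up to 17.6% in TSPAN8-high cells and 23.1% in TSPAN8-low cells. Its state upstream was better covered. The 16 cytosines of the upstream flank, outside the window, had 6 of 219 methylated reads (2.74%) in TSPAN8-high cells and 2 of 182 (1.10%) in TSPAN8-low cells. The predicted gene Gm31649 overlaps the Trim28 start.

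Outside the promoter windows, most of the cytosines of the 6 loci were methylated. Reads were pooled over the rest of each locus and tested in the same way over 19517 genes, with the same threshold. None of the 6 was called, and 0.897% of all loci were. Mbd4 was the most methylated, with 97.3% of 255 reads in TSPAN8-high cells and 96.9% of 319 in TSPAN8-low cells. Mbd2, the longest of the genes, was at 88.6% in TSPAN8-high cells and 88.1% in TSPAN8-low cells over 253 cytosines. Mbd1 was at 79.7% in TSPAN8-high cells and 82.4% in TSPAN8-low cells over 74 cytosines. Mbd3 was low for a gene body, at 39.6% of 518 reads in TSPAN8-high cells and 42.3% of 549 in TSPAN8-low cells, levels above those of 11% of all loci in the TSPAN8-high library and 11.7% in the TSPAN8-low library. Of its 43 cytosines here, 28 lie in the 1-kb tile of low methylation described below.

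The 2 imprint protectors had unadjusted p values below 0.05 here, as did 19.0% of all loci. Zfp57 was at 67.1% (651 of 970) in TSPAN8-high cells and 72.3% (631 of 873) in TSPAN8-low cells, a difference of -5.17 (-9.33 to -0.96, p = 0.0172, Fisher's exact test, adjusted p = 0.122). Trim28 was at 51.5% (248 of 482) in TSPAN8-high cells and 58.9% (291 of 494) in TSPAN8-low cells, a difference of -7.45 (-13.6 to -1.22, p = 0.0205, adjusted p = 0.136, exact test). Both differences changed sign when cytosines had equal weight, to 1.75 in Zfp57 and 1.60 in Trim28, and as strata, to 1.79 and 0.864. The pooled Trim28 level mixes unlike parts. Its upstream flank was at 2.74% of 219 reads in TSPAN8-high cells and 1.10% of 182 in TSPAN8-low cells. Its gene body outside the window was at 85.9% in TSPAN8-high cells and 88.7% in TSPAN8-low cells. Its downstream flank was at 97.8% in TSPAN8-high cells and 95.5% in TSPAN8-low cells. In Mbd3 the sign stayed and the size grew: its pooled difference of -2.68 (-8.55 to 3.21) became -9.16 with equal weights and -8.19 as strata, with an adjusted p of 0.000272 by the Mantel-Haenszel test, still under the minimum of 10 percentage points. Most of these Mbd3 cytosines are those of the tile described below. The result is therefore not separate from that tile, and shared reads make its p too small.

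Fixed tiles of 1 kb with at least 3 cytosines overlapped the loci in 76 cases, of which 4 had all their cytosines beyond the 2-kb limit and 2 had some beyond it. Of the 72 with a cytosine in the loci, 13 were below 20% and 57 above 80% in both libraries. One tile was called, against 0.189% of the 843092 tiles of the genome, and 5 of the 72 (6.94%) had an unadjusted p below 0.05, against 7.79% of all tiles. The called tile lies inside Mbd3 (chromosome 10, 80395001 to 80396000), in the part of the gene away from its start. It holds 28 cytosines at 15 CpGs, between 3738 and 4527 bp downstream of the Mbd3 start. TSPAN8-high cells had 17 methylated of 306 reads (5.56%) and TSPAN8-low cells 57 of 363 (15.7%), a difference of -10.1 (-14.7 to -5.52, Fisher's exact test, adjusted p = 0.0189).

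Single cytosines of this tile shared the direction. Of the 28, 20 were lower in TSPAN8-high cells, 2 were higher and 6 were equal. In TSPAN8-high cells 23 of them had no methylated read, against 6 in TSPAN8-low cells. Neighbouring CpGs sit on the same reads, so these cytosines are not independent. Both strands went the same way, with 5.76% in TSPAN8-high cells and 14.8% in TSPAN8-low cells on the plus strand, and 5.22% in TSPAN8-high cells and 16.9% in TSPAN8-low cells on the minus strand. Most of the tile's reads came from 26 cytosines in its first 300 bp, at 2.10% (6 of 286) in TSPAN8-high cells and 12.7% (44 of 347) in TSPAN8-low cells. The end of Gm30823, a long noncoding RNA gene at 80387760 to 80395068, overlaps this stretch.

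The call was close to its thresholds. It was lost by the exact test at a minimum of 10 reads per cytosine, where the difference was -9.84 with an adjusted p of 0.0582, and with 1 CpG per 100 bp, where 12.7% in TSPAN8-high cells stood against 21.1% in TSPAN8-low cells, a difference of -8.43 with an adjusted p of 1. The latter kept 4 cytosines, with 63 reads in TSPAN8-high cells and 71 in TSPAN8-low cells, so it rests on few reads.

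**Figure D4:**
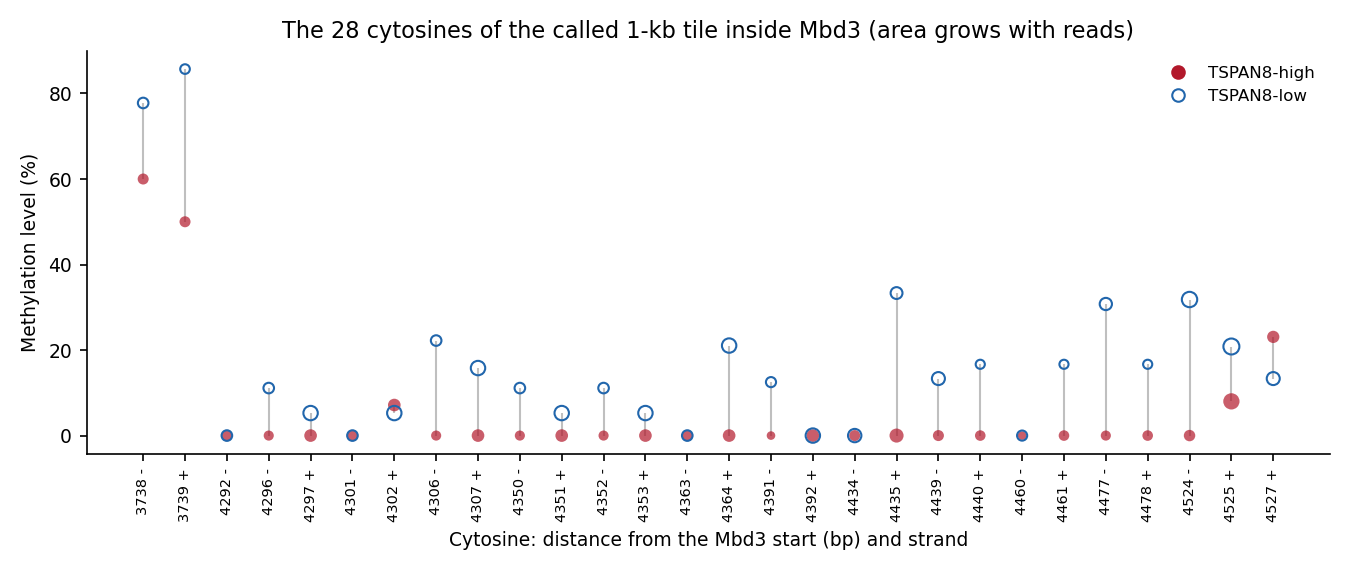
Methylation level (%) of the 28 cytosines of the called tile in Mbd3, in order of distance (bp) from the gene start with their strand, filled for TSPAN8-high and open for TSPAN8-low, grey lines joining the pair and point area growing with reads. Of the 28, 20 are lower in TSPAN8-high and 23 TSPAN8-high points are at 0.

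The tile with the greatest difference in each locus, by size alone, was in no case called. In Mbd1 it was the tile from 74265001, whose 6 cytosines all lie beyond the 2-kb limit, at 88.9% in TSPAN8-high cells and 98.2% in TSPAN8-low cells (Fisher's exact test, adjusted p = 0.744). With cytosines in the locus the greatest Mbd1 difference, from 74269001, had the other sign, at 92.7% in TSPAN8-high cells and 83.5% in TSPAN8-low cells (Fisher's exact test, adjusted p = 0.791). This Mbd1 tile mixes states: its cytosine at 74269168 had 2 of 8 methylated reads in TSPAN8-high cells and 2 of 14 in TSPAN8-low cells. The others of its 7 cytosines were at 91.7% or above in both libraries, so its pooled level moved with the reads on each. The Mbd2 tile, from 70629001 at the gene's far end, was at 91.4% in TSPAN8-high cells and 81.3% in TSPAN8-low cells. The Mbd3 tile, from 80394001 next to the called one, was at 61.8% of 34 reads in TSPAN8-high cells and 73.9% of 23 reads in TSPAN8-low cells. It mixes states: 1 of its 3 cytosines had 1 of 13 methylated reads in TSPAN8-high cells and 2 of 8 in TSPAN8-low cells. The others were at 90.9% or above in both libraries, so the pooled level moved with the reads on each. Mbd4 and Trim28 differed least. The Mbd4 tile, from 115842001, was at 95.8% in TSPAN8-high cells and 100% in TSPAN8-low cells. The Trim28 tile, from 13032001, was at 100% in TSPAN8-high cells and 94.1% in TSPAN8-low cells. Its cytosines lie past the end of Trim28, within 2 kb of it and inside the neighbouring gene Chmp2a. The Zfp57 tile, from 37003001 at the last start, was at 20.3% in TSPAN8-high cells and 13.3% in TSPAN8-low cells. A pair of adjoining tiles in Mbd2, named after their values were seen, differed in opposite directions: from 70625001 the levels were 91.8% in TSPAN8-high cells and 100% in TSPAN8-low cells (p = 0.000344, Fisher's exact test, adjusted p = 0.0891), and from 70626001 they were 100% in TSPAN8-high cells and 90% in TSPAN8-low cells (p = 0.00189, adjusted p = 0.197).

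None of the 811 cytosines was called at an adjusted p below 0.05 and 20 percentage points, against 0.00111% of all cytosines, and 5 (0.617%) had an unadjusted p below 0.05 by Fisher's exact test, against 1.47% of all cytosines. At a median of 10 reads a single cytosine shows only a wide difference. The greatest among those with at least 10 reads in both libraries was in the body of Mbd2, at 70583414 on the minus strand, where 12 of 12 reads were methylated in TSPAN8-high cells and 8 of 14 in TSPAN8-low cells (p = 0.0171, Fisher's exact test, adjusted p = 1). The lowest p of the 811 was also in the Mbd2 body, at 70608210 and in the other direction, with 12 of 20 reads in TSPAN8-high cells and 20 of 20 in TSPAN8-low cells (p = 0.00328, Fisher's exact test, adjusted p = 1), named after its value was seen. Counts from 70608197 to 70608211 were all even, as were those from 70583413 to 70583468. Whether overlapping reads of a pair were counted separately was not tested, and if so these p values are too small. In Mbd3 the greatest difference lay in the called tile, at 80395096, with 0 of 18 methylated reads in TSPAN8-high cells and 4 of 12 in TSPAN8-low cells. These counts were also all even, so the same limit holds. The neighbouring plus-strand cytosine, at 80395091, had 9 reads in TSPAN8-high cells and 6 in TSPAN8-low cells. In Mbd1 the greatest difference was at 74278721, with 20 of 20 reads in TSPAN8-high cells and 15 of 21 in TSPAN8-low cells. The other genes differed by fewer reads: Mbd4 (115852518) had 6 of 10 in TSPAN8-high cells and 3 of 11 in TSPAN8-low cells, Zfp57 (37004236) 13 of 16 in TSPAN8-high cells and 10 of 10 in TSPAN8-low cells, and Trim28 (13031917, past the gene's end) 19 of 19 in TSPAN8-high cells and 13 of 15 in TSPAN8-low cells.

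Promoters of genes that work with these proteins were mostly low in methylation, as were 79.6% of all promoters, which lay below 20% in both libraries. Of 12 genes listed as other methyl-CpG readers 11 were measured, 10 of them below 20% in both libraries. None was called, against 0.622% of all promoters. Whether each of these proteins binds methylated CpGs was not tested. Uhrf2, a SET- and RING-associated domain protein, was at 1.16% in TSPAN8-high cells and 0.513% in TSPAN8-low cells, and Baz2b, a bromodomain protein, at 2.2% in TSPAN8-high cells and 1.66% in TSPAN8-low cells. The exception in level, named after its value was seen, was Zbtb38, a zinc-finger reader, at 92.9% in TSPAN8-high cells and 96.2% in TSPAN8-low cells. Setdb2, a histone methyltransferase gene named after its value was seen, was lower at any size in TSPAN8-high cells, at 1.56% against 6.91% in TSPAN8-low cells, a difference of -5.35 (-8.56 to -2.36, Fisher's exact test, adjusted p = 0.0239). At any size, 1 of the 11 measured was called, against 3.76% of all promoters. The median difference of the list was -0.071, against -0.01 over all genes.

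All 13 of 13 NuRD partner genes were below 20% in both libraries and none was called, against 0.622% of all promoters. Rbbp4, a histone chaperone of the complex, was at 1.12% in TSPAN8-high cells and 1.26% in TSPAN8-low cells, and Mta2, a scaffold subunit, at 0.884% in TSPAN8-high cells and 1.78% in TSPAN8-low cells. Gatad2a, which links MBD2 or MBD3 to the remodeller and was named after its value was seen, was lower at any size in TSPAN8-high cells, at 0.654% against 2.41% in TSPAN8-low cells (Fisher's exact test, adjusted p = 0.0382). At any size, 1 of the 13 was called, against 3.76% of all promoters. Of 15 genes of TRIM28 partners and imprint protection 14 were measured, all below 20%. None was called at either rule, against 0.622% and 3.76% of all promoters. Ctcf, the insulator protein gene, was at 0.307% in TSPAN8-high cells and 0.575% in TSPAN8-low cells, and Morc3, an ATPase gene, at 3.8% in TSPAN8-high cells and 4.33% in TSPAN8-low cells. The 7 of 7 MBD4 partners in repair were likewise below 20% with none called, against the same shares of all promoters. Xrcc1, a scaffold of base excision repair, was at 0.495% in TSPAN8-high cells and 0.538% in TSPAN8-low cells, and Fadd, an adaptor that binds MBD4, at 5.27% in TSPAN8-high cells and 7.50% in TSPAN8-low cells. The median difference was -0.143 over the NuRD partners, -0.052 over the TRIM28 partners and 0.252 over the MBD4 partners.

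**Figure D5:**
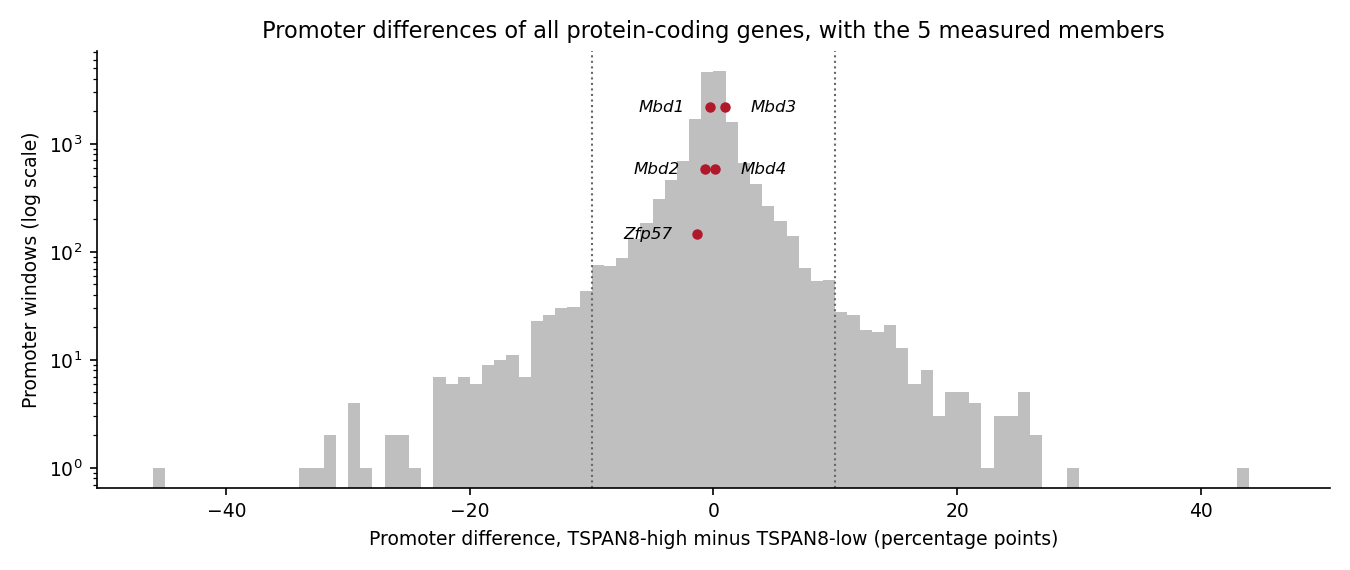
Number of promoter windows (log scale) by their difference in methylation, TSPAN8-high minus TSPAN8-low, in percentage points, for 16888 protein-coding genes, with dotted lines at the minimum of 10 percentage points. Points mark the 5 measured members, their height has no meaning, and all lie between -1.32 and 0.95.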

How the data were processed

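RRBS was done on DNA (300 ng) from 5 pooled sorts per fraction, with paired reads of 50 bp, per the labels. The authors deposited 1 table with a line per cytosine: the methylation level as a fraction rounded to 2 decimals, the coverage as read counts (none below 5), the level difference (unit other), and a p-value, which in the authors' deposited table was below 0.05 at 0.617% of member cytosines and 1.45% of all. The submitters' processing notes name Bowtie, SICER, mm9 and mm10 without saying for which assay, and the aligner's settings are not given in the sources used here. All 11568 of 11568 listed cytosines of chromosome 10 promoters fell on CpGs of the mm10 sequence, so mm10 was used. The deposited depth was 83658949 reads of cytosines for TSPAN8-high and 83773700 for TSPAN8-low. The 8 chromatin samples were not analysed here.

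The number of methylated reads was recovered as the rounded product of level and coverage. The outermost annotated start was used, for 17492 of 21887 genes, and otherwise the gene end with more listed CpGs. Exons and introns were not used here. Fisher's exact tests on pooled reads had Benjamini-Hochberg adjustment across every promoter, locus, tile or cytosine tested. In pooled counts a read covering several CpGs counts at each. This makes p values too small, intervals too narrow and the levels that a count of 0 allows too low. Single levels have exact Clopper-Pearson and differences Newcombe intervals of 95%, and a count of 0 allows 3 reads of the total. Tools were Python 3.11.15, scipy 1.17.1 and numpy 2.4.6, and scripts were tested on simulated data. Alternatives were other read minimums, windows and tiles, 1 CpG per 100 bp, removal of the most deeply read cytosines, and other averages. Named in each list were called genes and the 2 with the most reads, and in each locus called features and the greatest differences. Members and lists were chosen with earlier results of these data known.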

Additional observations from a re-analysis of the deposited data

How the results depend on the processing

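No paired analysis was possible because each fraction had 1 library, and for the same reason no library could be left out. Promoter differences (TSPAN8-high minus TSPAN8-low, percentage points) changed sign without a call in Mbd2 (0.533) and Mbd4 (-0.653) at 10 reads, in Mbd4 (-2.83) at 20 reads and with 1 CpG per 100 bp (-0.0699), and in Mbd1 (0.152) with 500 bp windows. Zfp57 became called only with 2 kb windows (-24.4), the 1 member called there. Outside the promoters, signs changed in Mbd2 at 10 reads (-0.364), in Zfp57 at 20 reads (3.86), in Mbd4 with 1 CpG per 100 bp (-0.65), and as strata in Mbd1 (0.689), Mbd2 (-0.213), Zfp57 (1.79) and Trim28 (0.864). Equal weights gave -9.16 in Mbd3 and the other sign in Zfp57 (1.75), Trim28 (1.60), Mbd2 (-0.267), Mbd4 (-0.577) and the Mbd1 promoter (1.04). The Zfp57 start that the promoter table lists first is the last one along the gene, and was an alternative chosen after seeing the data. With it the difference was 1.42 outside the promoter and -8.83 in the promoter window, without a call.

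The Mbd3 tile was not called at 10 reads or with 1 CpG per 100 bp and had too few cytosines at 20 reads, which left 0 called tiles in the loci each time. The same held on each strand alone (0 called each, also chosen after seeing the data), with -9.07 and an adjusted p of 0.272 on the plus strand and -11.7 and 0.287 on the minus strand. The Zfp57 tile from 37003001 fell to -4.75 with 1 CpG per 100 bp. Over all genes, called promoters numbered 51 at 10 reads, 9 at 20, 0 with 1 CpG per 100 bp, 48 and 226 in windows of 500 bp and 2 kb, and 635 with no minimum difference, against 105. Called loci numbered 98 at 20 reads, 77 with 1 CpG per 100 bp and 31 as strata, against 175. Called tiles numbered 371 at 20 reads, 64 with 1 CpG per 100 bp, and 805 and 858 on the plus and minus strand, against 1591. Called cytosines numbered 153 at 10 reads, 176 at 20, 39 without the most deeply read and 177 with no minimum difference, against 75. The cause of these shifts was not tested, and fewer cytosines enter at higher minimums.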

Other observations

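Stretches of low methylation also lay at or past the far ends of 4 of the genes, with no tile of them called. The cytosines of the tiles named below for Mbd4 and Trim28 lie beyond 2 kb from the gene and are none of the 811. In Mbd2, 8 cytosines of the tile from 70628001, inside the gene's last kilobase, were at 5.63% (4 of 71 reads) in TSPAN8-high cells and 2.53% (2 of 79) in TSPAN8-low cells, between methylated tiles. Past the end of Mbd1, the tile from 74283001 that holds an end of Cfap53, a gene of cilia and flagella, was at 4.48% (3 of 67) in TSPAN8-high cells and 4.76% (1 of 21) in TSPAN8-low cells. Its methylated reads were all at the cytosine 74283916, with 3 of 7 in TSPAN8-high cells and 1 of 5 in TSPAN8-low cells. The cytosines at 74283059 and 74283060 had none in either library. Past the end of Mbd4, the tile from 115838001, at an end of Efcab12, had 0 of 26 methylated reads in TSPAN8-high cells and 0 of 28 in TSPAN8-low cells, which allows up to 11.5% in TSPAN8-high cells and 10.7% in TSPAN8-low cells. Beyond Trim28, the tile from 13033001 inside Chmp2a, which encodes a subunit of the membrane-cutting ESCRT-III complex, was at 9.43% (20 of 212) in TSPAN8-high cells and 10.1% (15 of 149) in TSPAN8-low cells.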
